A study of Mus musculus with 2 samples.

Results

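The 35 genes described here cover how a cell makes, alters, stores and burns fatty acids, and they were taken by symbol from the 23183 genes in each expression file. By role they are 5 genes of acetyl-CoA supply and fatty acid synthesis, 4 of elongation, 5 of desaturation, 4 of activation to acyl-CoA, 5 of glycerolipid assembly, 3 of lipid droplets and lipolysis, 7 of mitochondrial oxidation and 2 of uptake and binding. KPR- is an immortalized cell line from a mouse lung cancer of the KPR L/F line without tamoxifen, labelled RUNX3 -/-, at 0 h. The KPRrestored library comes from the same kind of cells, labelled RUNX3 -/+, at 16 h, and each condition was sequenced as 1 library. The mice carried K-Ras LSL-G12D/+ (an oncogenic allele behind a LoxP-Stop-LoxP cassette), p53 flox/flox, Runx3 flox/FSF (a floxed allele and a Frt-Stop-Frt allele), a Tomato reporter and the Flp ERT2 recombinase. Adenovirus with Cre under a CMV promoter, given through the nose, switched on *K-Ras* and deleted p53 and the floxed *Runx3* allele, so both conditions lack p53. 4-hydroxytamoxifen (4-OHT) switches on Flp, which cuts out the stop cassette of the remaining *Runx3* allele. In the paper, KPRrestored cells were made by treating KPR- cells with 4-OHT. The labels nevertheless list 1 μM 4-OHT for both libraries. The number of lines or tumors behind a library is not given in the sources used here. *Runx3* restoration, 4-OHT and hours in culture cannot be told apart in this design.

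Fatty acid synthesis starts in the cytosol, where acetyl-CoA is turned into malonyl-CoA and then into palmitate, which is elongated and desaturated in the endoplasmic reticulum. Fatty acids activated by acyl-CoA synthetases are built into membrane lipids or triglycerides, and triglycerides are kept in lipid droplets coated by perilipins. Oxidation takes place in mitochondria after entry through the carnitine shuttle, and malonyl-CoA, the product of the first committed step of synthesis, blocks that entry. Alveolar type 2 cells, from which many *K-Ras*-driven lung tumors arise, make large amounts of lipid for surfactant.

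Values are FPKM (sequenced fragments per gene, divided by transcript length and by library depth), and a difference is log2(FPKM + 0.005) in KPRrestored minus that in KPR-. With 1 library per condition there is no replicate check and no test, and a gene is called higher or lower when its difference is 0.5 or more either way. The depth, read from the steps that whole fragments leave in low FPKM values, was about 21.8 M fragments in KPR- and 22.6 M in KPRrestored. From it a 95% counting interval (Clopper-Pearson) was computed for each difference, which covers counting error only. *Runx3* had 0.348 FPKM in KPR- and 0.349 FPKM in KPRrestored, so its value per gene does not check the labels. All 6 epithelial markers (*Epcam*, *Cdh1*, *Krt7*, *Krt8*, *Krt18* and *Krt19*) had 91.6 FPKM or more in both libraries, and *Krt7* was the 1 past the threshold, with 1229 FPKM in KPR- and 743.5 FPKM in KPRrestored. Of the 10 alveolar type 2 markers, *Sftpc*, *Sftpb*, *Sftpa1*, *Lamp3* and *Napsa* were listed at 0 in both, *Sftpd* and *Nkx2-1* stayed under 1 FPKM, and the others were *Abca3* (18.2 and 14.6 FPKM), *Etv5* (8.845 and 11.8 FPKM) and *Lpcat1* (25.3 and 17.1 FPKM, lower). All 3 club cell markers were at 0 in both. Of the 5 alveolar type 1 markers, *Aqp5* (146 and 106 FPKM) and *Cav1* (184 and 111 FPKM, lower) passed 1 FPKM. Of the 8 mesenchymal markers, *Vim* had 1777 and 1464 FPKM, *Col1a1* had 12.2 and 4.21 FPKM (lower), and the other 6 were under 1 FPKM in both. The 6 macrophage markers summed to 5.81 and 7.98 FPKM, with *Csf1r* lower (2.68 and 1.19 FPKM), *Cd68* higher (3.08 and 6.78 FPKM) and *Adgre1* and *Lyz2* at 0 in both. The 4 endothelial markers summed to 1.16 and 2.22 FPKM, with *Kdr* higher (1.099 and 2.05 FPKM). The part of other cell types in the results was not tested.

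A gene was counted when the mean of its FPKM in both libraries was 1 or more, which 33 of the 35 members were. Of these, 3 were higher and 3 were lower in KPRrestored. Among all 11231 counted genes, 12.1% were higher and 9.29% were lower, so the number of members past the threshold was close to the background. The 3 higher members were *Plin2*, *Plin3* and *Lpin2*, all of droplet coating or glycerolipid assembly. The 3 lower members were *Acaca*, *Elovl6* and *Fasn*, all of synthesis or elongation. No oxidation, desaturation or activation gene passed the threshold in either direction. The nearest members inside the threshold were *Dgat1*, with a difference of 0.33, and *Elovl1*, with a difference of -0.31. The remaining 2 members, *Acacb* and *Cd36*, were close to or at 0 in both libraries.

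**Figure D1:**
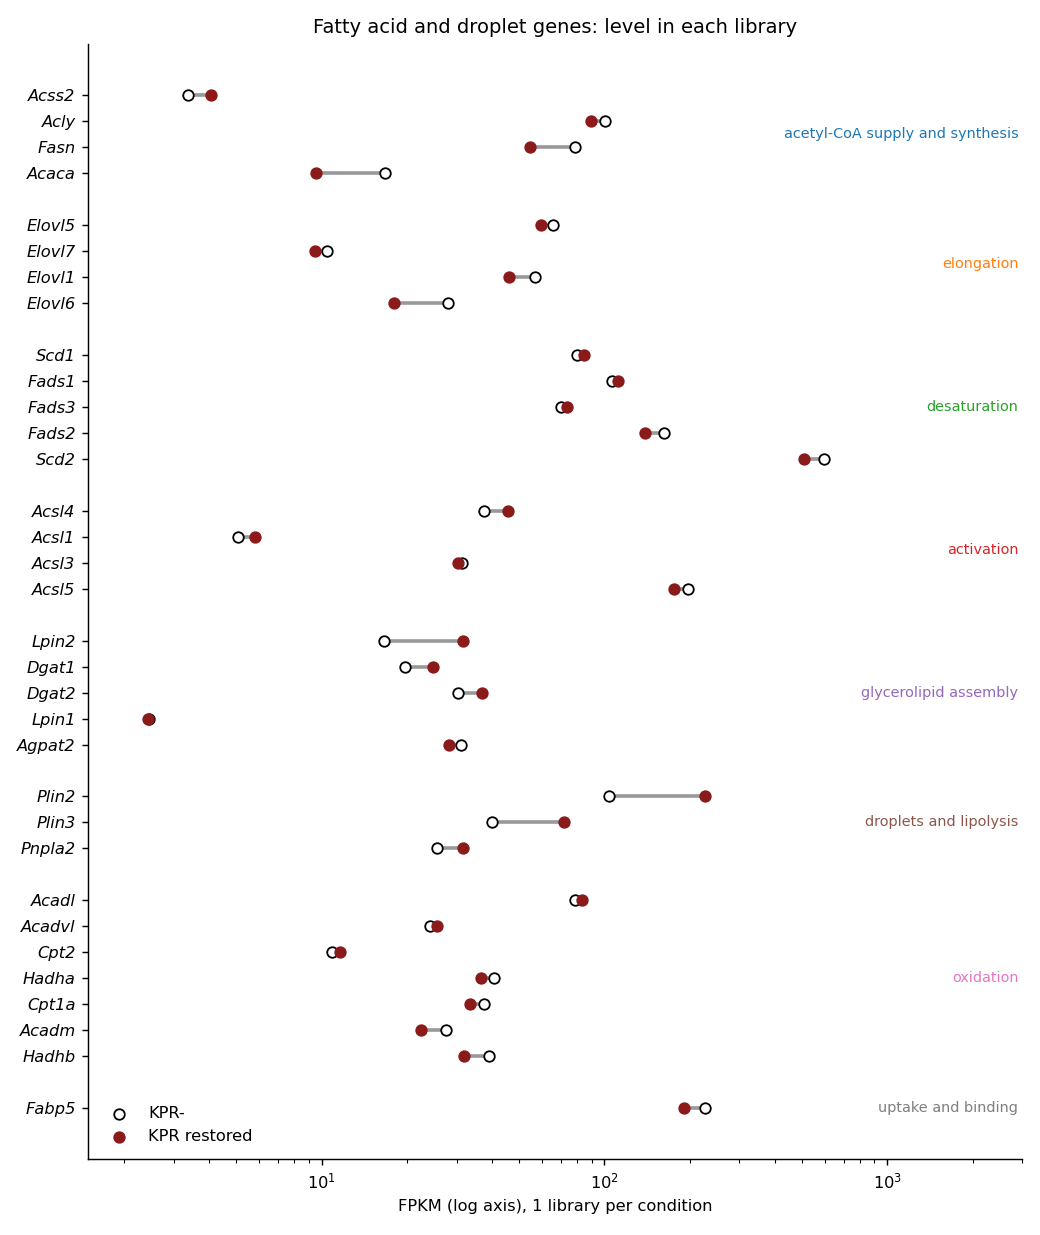
FPKM of the 33 counted members, on a log axis, grouped by role. Open circles are the KPR- library and filled circles the KPRrestored library, with 1 library each. The widest gaps are those of *Plin2*, *Plin3* and *Lpin2* to the right and of *Acaca*, *Elovl6* and *Fasn* to the left.

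*Plin2* encodes the perilipin that coats droplets in most cells outside fat tissue and lies at chr4:86648386-86670060 of GRCm38 (minus strand). It had 103.7 FPKM in KPR- and 226.6 FPKM in KPRrestored, a 2.18-fold higher level and a log2 difference of 1.13 (counting interval 1.07 to 1.18). Its difference ranked 250 from the top among the 11231 genes. *Plin3*, at chr17:56277476-56292873 (minus strand), encodes a perilipin found in the cytosol and on young droplets. Its level was 39.97 FPKM in KPR- and 72.1 FPKM in KPRrestored, a difference of 0.85 (0.79 to 0.92). *Pnpla2*, the first lipase of triglyceride breakdown (ATGL), had 25.6 and 31.6 FPKM, a difference of 0.31 (0.20 to 0.41). The 3 droplet and lipolysis members thus lay above 0 together, and their summed level was 169 FPKM in KPR- and 330.2 FPKM in KPRrestored. The ratio of *Plin2* to *Plin3* per length was 2.60 in KPR- and 3.14 in KPRrestored.

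Glycerolipid assembly joins fatty acids to a glycerol backbone. *Lpin2*, at chr17:71182560-71249817 (plus strand), encodes a phosphatidate phosphatase that makes diacylglycerol. It had 16.6 FPKM in KPR- and 31.6 FPKM in KPRrestored, a 1.90-fold higher level and a difference of 0.93 (0.85 to 1.01). Its relative *Lpin1* had 2.45 FPKM in both libraries, so the ratio of *Lpin2* to *Lpin1* was 6.78 in KPR- and 12.9 in KPRrestored. *Dgat1* and *Dgat2* encode unrelated enzymes of the last step of triglyceride synthesis. *Dgat1* had 19.8 and 24.8 FPKM, a difference of 0.33 (0.19 to 0.47). *Dgat2* had 30.3 and 36.9 FPKM, a difference of 0.29 (0.18 to 0.39). The counting intervals of both genes lay above 0, but neither gene reached the threshold, and with the shortest coding transcript the interval of *Dgat2* was -0.074 to 0.66 and held 0. *Agpat2*, which makes phosphatidic acid, had 31.2 and 28.3 FPKM, a difference of -0.14 (-0.28 to -0.0018). The summed level of the 5 assembly genes was 100.3 FPKM in KPR- and 124 FPKM in KPRrestored.

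The synthesis genes lay mostly on the other side. *Acaca*, at chr11:84129672-84401651 (plus strand), encodes the cytosolic acetyl-CoA carboxylase that makes malonyl-CoA. It had 16.7 FPKM in KPR- and 9.59 FPKM in KPRrestored, a difference of -0.80 (-0.89 to -0.72), which ranked 310 from the bottom among the 11231 genes. *Fasn*, at chr11:120805846-120824547 (minus strand), encodes the synthase that turns malonyl-CoA into palmitate. Its level was 78.5 FPKM in KPR- and 54.7 FPKM in KPRrestored, a difference of -0.52 (-0.56 to -0.49). The counting interval of *Fasn* spans the threshold itself. *Acly*, which makes cytosolic acetyl-CoA from citrate, had 100.6 and 89.6 FPKM, a difference of -0.17 (-0.21 to -0.12). *Acss2*, which makes it from acetate, had 3.36 and 4.08 FPKM (about 199 and 250 fragments), and its difference of 0.28 had an interval of 0.0059 to 0.56. *Acacb*, the mitochondrial acetyl-CoA carboxylase, had 0.033 and 0.021 FPKM (about 6 and 4 fragments), and a difference between the libraries was not detectable at this depth. The summed level of the 5 genes was 199 FPKM in KPR- and 158 FPKM in KPRrestored.

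All 4 elongases had a lower level in KPRrestored, and their counting intervals lay below 0. With the shortest coding transcript behind the estimated fragments, the interval of *Elovl5* was -0.30 to 0.028 and held 0. *Elovl6*, at chr3:129532355-129638495 (plus strand), elongates palmitate and other saturated acids. It had 28.0 FPKM in KPR- and 18.1 FPKM in KPRrestored, a difference of -0.63 (-0.71 to -0.56). *Elovl1*, which acts on very long chains, had 57.0 and 45.9 FPKM, a difference of -0.31 (-0.41 to -0.22). *Elovl5*, an elongase of polyunsaturated acids, had 65.7 and 59.7 FPKM, and *Elovl7* had 10.4 and 9.45 FPKM, with a difference of -0.14 for each gene. *Elovl6* alone passed the threshold.

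Desaturases stayed closer to 0, with differences from -0.23 to 0.08. *Scd2*, a stearoyl-CoA desaturase that makes monounsaturated fatty acids, had the highest level of all members, 596 FPKM in KPR- and 508 FPKM in KPRrestored, a difference of -0.23 (-0.25 to -0.21). *Scd1*, its close relative, had 79.9 and 84.6 FPKM, a difference of 0.08 (0.039 to 0.13). The ratio of *Scd2* to *Scd1* was 7.46 in KPR- and 6.01 in KPRrestored, and it is uncertain how the authors' quantification divided reads that fit both genes. *Fads2*, the delta-6 desaturase of polyunsaturated acids, had 163 and 140 FPKM, a difference of -0.22. *Fads1*, the delta-5 desaturase, had 106 and 111 FPKM, and *Fads3* had 70.3 and 73.9 FPKM, with a difference of 0.07 for each gene. Within each of these gene families, members therefore lay on both sides of 0.

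**Figure D2:**
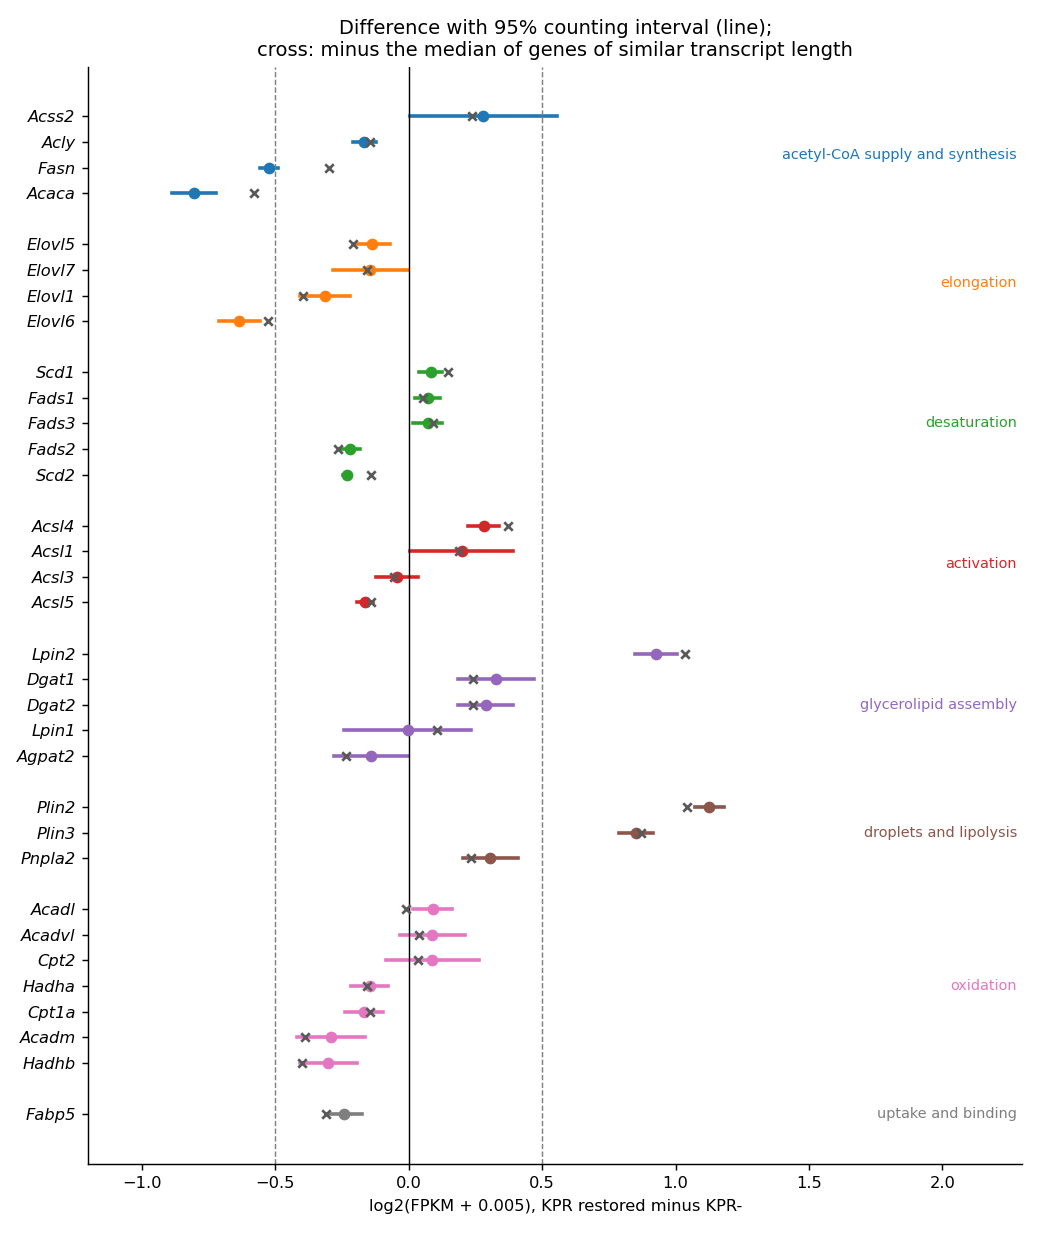
Log2 difference of each of the 33 members, KPRrestored minus KPR-, grouped by role. Points are differences, lines are 95% counting intervals, dashed lines mark 0.5 either way, and crosses show the difference after the median of genes of similar transcript length is subtracted. *Plin2*, *Lpin2* and *Plin3* lie to the right of the dashed line with either value, and the cross of *Fasn* lies at -0.30, inside the threshold.

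Acyl-CoA synthetases activate fatty acids for all later steps. *Acsl5* was the most abundant, with 197 and 176 FPKM, a difference of -0.16. *Acsl4*, which prefers arachidonic acid, had 37.7 and 45.8 FPKM, a difference of 0.28 (0.22 to 0.34). *Acsl3*, a synthetase of the endoplasmic reticulum and young droplets, had 31.4 and 30.4 FPKM, and its interval of -0.12 to 0.037 held 0. *Acsl1* had 5.06 and 5.81 FPKM, a difference of 0.20 (0.0049 to 0.39). The ratio of *Acsl5* to *Acsl4* was 5.22 in KPR- and 3.84 in KPRrestored. For uptake and transport, *Fabp5*, a fatty acid binding protein, had 226 and 191 FPKM, a difference of -0.24 (-0.31 to -0.18). *Cd36*, the fatty acid translocase, was listed at 0 in KPR- and at 0.014 FPKM in KPRrestored, from about 1 fragment, so no fold is given.

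The 7 oxidation genes had differences from -0.30 to 0.09, none past the threshold. *Cpt1a*, the gated step of mitochondrial entry, had 37.5 FPKM in KPR- and 33.4 FPKM in KPRrestored, a difference of -0.17 (-0.24 to -0.097). *Cpt2*, its partner on the inner membrane, had 10.9 and 11.6 FPKM, with an interval of -0.085 to 0.26 that held 0. The acyl-CoA dehydrogenases, which take the first step of each oxidation round, differed among themselves. *Acadm*, for medium chains, had 27.5 and 22.5 FPKM, a difference of -0.29 (-0.42 to -0.16). *Acadl*, for long chains, had 78.5 and 83.5 FPKM, and *Acadvl*, for very long chains, had 24.1 and 25.7 FPKM, with a difference of 0.09 for each gene. The ratio of *Acadl* to *Acadm* was 2.85 in KPR- and 3.71 in KPRrestored. *Hadha* and *Hadhb* encode both subunits of the trifunctional protein that completes the round for long chains. *Hadha* had 40.5 and 36.6 FPKM, a difference of -0.15, and *Hadhb* had 39.2 and 31.8 FPKM, a difference of -0.30 (-0.41 to -0.19). The ratio of *Acaca* to *Cpt1a* per length was 0.446 in KPR- and 0.287 in KPRrestored. It compares RNA levels, and malonyl-CoA was not measured.

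The median difference was -0.17 over the 13 counted synthesis, elongation and desaturation members and -0.15 over the 7 oxidation members, with 0.01 over all 11231 genes. Of the 13, 9 lay below 0 and 3 were lower by the threshold, beside 5503 and 1043 of all 11231 genes. Of the 7 oxidation members, 4 lay below 0 and none passed the threshold. The droplet and lipolysis members had a median of 0.85 over 3 genes, 1.02 above the synthesis median and 1.00 above the oxidation median. In summed FPKM, synthesis, elongation and desaturation together went from 1376 to 1209, oxidation from 258 to 245, and glycerolipid assembly with droplets and lipolysis from 270 to 454. Single genes weigh heavily in these sums, since *Plin2* alone went from 103.7 to 226.6 FPKM and *Scd2* from 596 to 508 FPKM. The further assembly genes described below went from 216 to 197 FPKM, and the further droplet and lipolysis genes from 122 to 210 FPKM. The ratio of *Plin2* to *Fasn* per length was 1.32 in KPR- and 4.14 in KPRrestored. This pair joins the counted member with the highest difference and 1 of the 3 lower members, so its ratio does not stand for the groups. Of the 33 members, 13 had a counting interval above 0 and 16 had one below 0, where 34.3% and 33.0% of all genes with estimated fragments did. An interval narrows with more fragments, and these shares were not matched for level. No share of all genes was computed with the shortest coding transcript. With the shortest coding transcript the counts were 8 and 12, and the intervals of *Acss2*, *Fads1*, *Fads3*, *Acsl1*, *Dgat2*, *Elovl5*, *Agpat2*, *Cpt1a* and *Acadm* then held 0. These intervals compare the libraries, not the conditions. The medians are descriptions, and the difference between the groups was not tested.

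**Figure D3:**
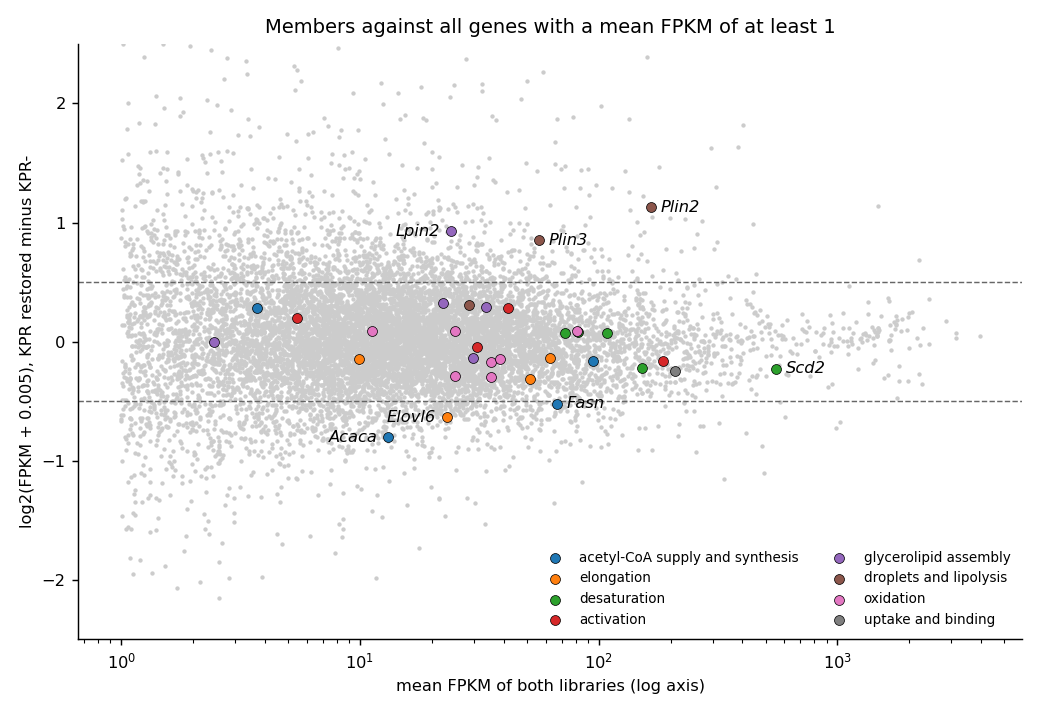
Mean FPKM of both libraries (log axis) against the log2 difference, KPRrestored minus KPR-. Grey points are 11187 counted genes, colored points are members by role, dashed lines mark 0.5 either way, and 44 genes beyond 2.5 either way are outside the axis. Most members lie between the dashed lines and *Plin2* has the highest difference of the members plotted.

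Long transcripts tended to be lower in KPRrestored across all genes, which touches the lower members. *Acaca* and *Fasn* were placed with transcripts of 9026 and 10050 bases, in the longest 559 genes, whose median difference was -0.22 and of which 17.9% were lower. *Elovl6* and *Lpin2*, with 5951 and 5640 bases, fell in a bin of 558 genes with a median of -0.11, of which 14.5% were lower and 4.84% were higher. With the median of its length bin subtracted, the difference was -0.58 for *Acaca*, -0.53 for *Elovl6* and -0.30 for *Fasn*, which no longer passed the threshold. By the same measure it was 1.04 for *Plin2*, 1.04 for *Lpin2* and 0.87 for *Plin3*. The median changed little for synthesis, elongation and desaturation together, to -0.15, and for oxidation, to -0.15. Taken alone, the synthesis median went from -0.34 to -0.22 and the elongation median from -0.23 to -0.30.

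The bases before the start of the members past the threshold are shown so that sequence can be read beside direction, as far as the RefSeq promoter table of GRCm38.p6 gives a start that lies within 3000 bases of the outermost annotated start and within 5 bases of an annotated transcript start. Bases in annotated exons are left out, and the window of *Acaca* lies 65766 bases inside the gene and is not shown. Each window of 250 bases was searched on both strands for the RUNX site (TGTGGT or TGCGGT), the sterol regulatory element (TCACNCCAC), the E-box (CACGTG) and the CCAAT box (CCAAT), and matches are in capitals, so ATTGG and ACCGCA are matches on the other strand. The stretches lie at chr4:86670061-86670309 (*Plin2*, minus strand), chr17:56290512-56290761 (*Plin3*, minus strand), chr17:71183745-71183977 (*Lpin2*, plus strand), chr11:120824548-120824797 (*Fasn*, minus strand) and chr3:129532136-129532256 (*Elovl6*, plus strand).
Plin2: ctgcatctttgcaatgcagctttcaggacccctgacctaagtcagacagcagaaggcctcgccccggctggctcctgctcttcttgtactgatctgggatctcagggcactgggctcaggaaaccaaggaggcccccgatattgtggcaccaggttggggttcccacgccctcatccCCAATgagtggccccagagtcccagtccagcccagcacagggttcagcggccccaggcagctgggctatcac
Plin3: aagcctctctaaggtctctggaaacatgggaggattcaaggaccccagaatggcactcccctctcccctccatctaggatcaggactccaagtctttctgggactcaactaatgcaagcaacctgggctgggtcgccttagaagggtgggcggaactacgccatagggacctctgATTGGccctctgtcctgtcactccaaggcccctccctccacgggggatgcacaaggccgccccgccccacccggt
Lpin2: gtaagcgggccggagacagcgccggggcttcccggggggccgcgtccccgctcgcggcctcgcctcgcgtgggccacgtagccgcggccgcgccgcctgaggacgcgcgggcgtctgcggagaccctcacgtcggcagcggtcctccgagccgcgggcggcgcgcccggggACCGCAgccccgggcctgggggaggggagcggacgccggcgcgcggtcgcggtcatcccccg
Fasn: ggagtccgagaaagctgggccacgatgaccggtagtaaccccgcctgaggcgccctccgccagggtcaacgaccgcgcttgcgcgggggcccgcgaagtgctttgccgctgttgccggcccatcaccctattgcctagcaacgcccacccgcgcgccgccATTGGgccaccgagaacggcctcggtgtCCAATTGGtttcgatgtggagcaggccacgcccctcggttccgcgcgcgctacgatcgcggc
Elovl6: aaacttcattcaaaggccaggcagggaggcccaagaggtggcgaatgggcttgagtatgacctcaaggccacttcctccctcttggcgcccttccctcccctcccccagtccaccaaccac

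*Plin2* held a CCAAT box starting 73 bases before the start, and *Plin3* held one on the other strand, 75 bases before the start. The start used lies 1 base from the outermost annotated start for *Plin2* and 2362 bases from it for *Plin3*. *Fasn* held 3 matches to the CCAAT box, 2 of which overlap, starting 62 and 59 bases before the start. The *Lpin2* stretch is the second of its 3 windows and held RUNX letters, starting 62 bases before the start. The first *Lpin2* window, which has no annotated transcript start at its end, held an E-box 9 bases before the start and no RUNX letters, and the third, 22094 bases from the outermost start, held 3 CCAAT boxes and no RUNX letters. Windows were found for 29 of the 35 members, with 33 windows in all, since *Elovl1*, *Acsl1* and *Lpin2* have several. RUNX letters were in 21.2% of these windows and in 18.6% of all 32851 windows of the table, and the CCAAT box was in 42.4% and 33.8%. Besides *Lpin2*, windows of *Acly*, *Acaca*, *Acacb*, *Elovl5*, *Fads2* and *Agpat2* held RUNX letters. Of these, *Acaca* was lower (-0.80) and *Acacb* was under the filter. *Acly*, *Elovl5*, *Fads2* and *Agpat2* had differences from -0.22 to -0.14, inside the threshold. The sterol regulatory element was in 1 of the members' 33 windows (3.03%) and in 1.05% of all. That window was the second of *Acsl1*, 19929 bases from its outermost annotated start, and the first *Acsl1* window held none. A match describes letters in a window and not binding.

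Of 126 other genes of the pathway listed, 85 were counted, 14 were higher and 2 were lower, beside 12.1% and 9.29% of all counted genes. Regulators of these routes were listed with 20 genes, of which 15 were counted, 2 were higher and none was lower. *Pparg* and *Ppard* encode nuclear receptors that fatty acids bind and that act on genes of lipid storage and oxidation. *Pparg* had 17.2 FPKM in KPR- and 29.7 FPKM in KPRrestored, a difference of 0.78 (0.65 to 0.92). *Ppard* had 15.6 and 24.5 FPKM, a difference of 0.66 (0.54 to 0.77). *Ppara* had about 1 and 2 fragments, and no fold is given.

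*Srebf1* encodes the sterol regulatory element binding protein that acts on synthesis genes. It had 63.6 FPKM in KPR- and 52.2 FPKM in KPRrestored, a difference of -0.29 (-0.34 to -0.23). *Scap*, which escorts it to the Golgi, had 27.4 and 20.1 FPKM, a difference of -0.44, and the proteases *Mbtps1* and *Mbtps2*, which release it, had a difference of -0.31 each. *Insig1*, which holds the complex back, had 47.4 and 54.7 FPKM, a difference of 0.21, while *Insig2* had a difference of -0.05 and *Srebf2* one of -0.08. The liver X receptors *Nr1h2* and *Nr1h3* had differences of 0.19 and 0.41, from 34.3 and 39.1 FPKM and from 2.70 and 3.57 FPKM. *Mlx* and *Mlxip*, of the glucose-sensing factors, had differences of 0.19 and -0.06. Of the AMP-activated kinase pathway, which blocks acetyl-CoA carboxylase, *Prkaa1* had 22.5 and 22.6 FPKM and *Stk11* had 55.2 and 49.3 FPKM. None of the genes in this paragraph passed the threshold.

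Of 16 other droplet and lipolysis genes listed, 9 were counted, 4 were higher and none was lower. Of the 9, 7 lay above 0 and 2 below 0. Those below 0 were *Lipa*, with a difference of -0.33 (-0.44 to -0.22), and *Bscl2*, with -0.23 (-0.45 to -0.0071). The shares of all counted genes were 12.1% higher and 9.29% lower. *Hilpda*, a droplet protein induced by hypoxia that inhibits the lipase encoded by *Pnpla2*, had 45.4 FPKM in KPR- and 123 FPKM in KPRrestored, a difference of 1.44 (1.32 to 1.56). *G0s2*, another inhibitor of that lipase, had 9.13 and 15.0 FPKM, a difference of 0.72 (0.40 to 1.04). *Abhd5*, its activator, had 4.71 and 6.72 FPKM, a difference of 0.51 (0.30 to 0.73), which became 0.47 and no longer passed the threshold with the median of its length bin subtracted. *Plin4*, a perilipin of nascent droplets, had 0.511 and 2.999 FPKM, a difference of 2.54 (2.16 to 2.96), and it passed the filter through its KPRrestored value. *Plin1*, the perilipin of fat cells, was listed at 0 in both libraries. Of the 6 adipocyte markers, *Adipoq*, *Plin1* and *Lep* were at 0 in both, and the summed level of all 6 was 1.77 FPKM in KPR- and 5.30 FPKM in KPRrestored. *Cidec*, on the droplet and adipocyte lists, had 0.398 and 1.04 FPKM (about 13 and 36 fragments), under the filter. *Mgll*, on the droplet list and also under the filter, went the other way, with 0.082 and 0.013 FPKM. Its values came from about 7 and 1 fragments, and its interval of -8.35 to 0.10 held 0.

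Of 17 further genes of activation and uptake, 8 were counted, 4 were higher and none was lower. Among all counted genes, 12.1% were higher and 9.29% were lower. *Vldlr*, a receptor for triglyceride-rich lipoproteins, had 11.5 FPKM in KPR- and 23.0 FPKM in KPRrestored, a difference of 1.00 (0.92 to 1.08). *Slc27a1*, a fatty acid transport protein, had 5.14 and 9.77 FPKM, a difference of 0.93 (0.72 to 1.14). *Fabp4*, the fatty acid binding protein of fat cells and macrophages, had 1.37 and 4.15 FPKM (about 20 and 64 fragments), a difference of 1.60 (0.89 to 2.43). *Acsbg1*, an acyl-CoA synthetase, had 21.5 and 31.3 FPKM, a difference of 0.54 (0.44 to 0.65). *Fabp4* is also on the adipocyte list, and the part of other cell types in its value was not tested.

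**Figure D4:**
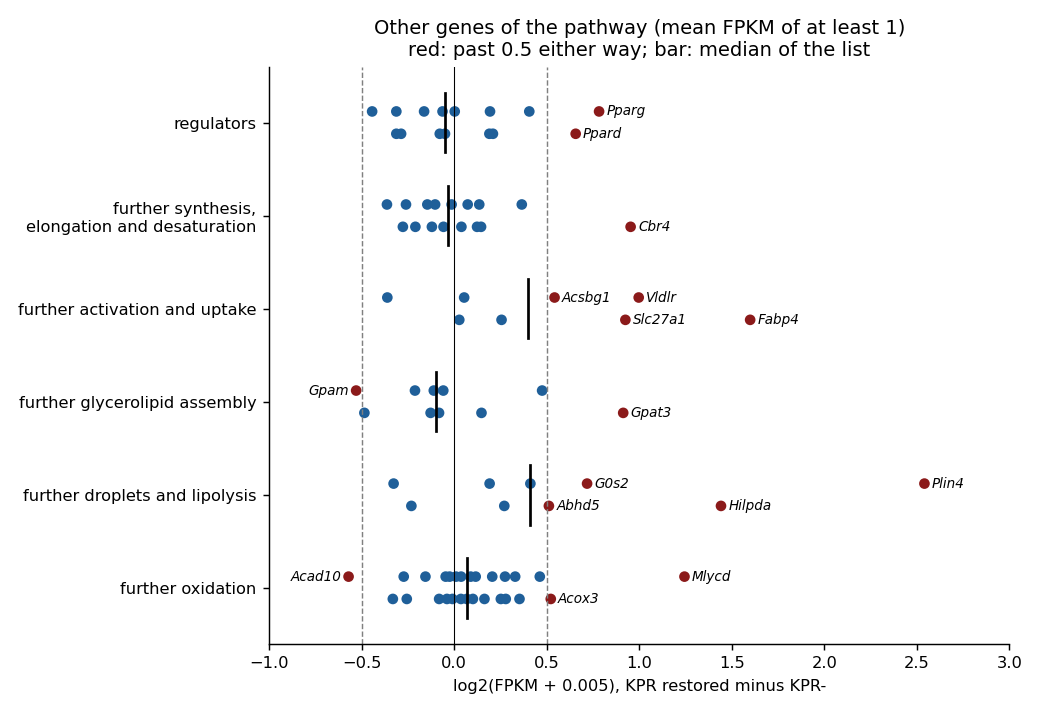
Log2 difference, KPRrestored minus KPR-, of the other counted genes of the pathway, by list. Each point is a gene, and red points are past 0.5 either way and carry the gene's name. Black bars are list medians, 0.41 for droplets and lipolysis and 0.40 for activation and uptake. The medians of the other lists lie between -0.10 and 0.07. The droplet and lipolysis median includes *Plin4*, which passed the filter through its KPRrestored value.

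The first step of glycerolipid assembly showed genes on both sides. Of 12 further assembly genes, 10 were counted, 1 was higher and 1 was lower, beside 12.1% and 9.29% of all counted genes. *Gpat3*, a glycerol-3-phosphate acyltransferase of the endoplasmic reticulum listed in the files as *Agpat9*, had 5.67 FPKM in KPR- and 10.7 FPKM in KPRrestored, a difference of 0.91 (0.72 to 1.11). *Gpam*, the mitochondrial enzyme of the same step, had 7.10 and 4.92 FPKM, a difference of -0.53 (-0.68 to -0.38). *Gpat4*, listed as *Agpat6*, had 55.6 and 39.7 FPKM, a difference of -0.49 (-0.54 to -0.43), just inside the threshold. With the median of its length bin subtracted, *Gpam* had a difference of -0.42 and no longer passed the threshold.

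Further synthesis and oxidation genes were mostly within the threshold. Of 26 further synthesis, elongation and desaturation genes, 16 were counted, and *Cbr4*, a reductase of mitochondrial fatty acid synthesis, was the single higher gene, with 5.69 and 11.0 FPKM, a difference of 0.95 (0.80 to 1.11). None was lower. Of 35 further oxidation genes, 27 were counted, 2 were higher and 1 was lower, beside 12.1% and 9.29% of all counted genes. *Mlycd*, which encodes malonyl-CoA decarboxylase, had 1.43 FPKM in KPR- and 3.38 FPKM in KPRrestored, a difference of 1.24 (0.79 to 1.69). *Acox3*, a peroxisomal acyl-CoA oxidase, had 3.38 and 4.86 FPKM, a difference of 0.52, and *Acad10* had 1.22 and 0.819 FPKM, a difference of -0.57 (-1.07 to -0.10). *Acad10* passed the filter through its KPR- value. The medians were -0.04 over the 16 synthesis genes and 0.07 over the 27 oxidation genes.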

How the data were processed

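mRNA of KPR- and KPRrestored cells was sequenced as 1 poly(A)-selected directional library each. After trimming, the authors aligned read pairs with TopHat (mm10 in the submitters' processing notes) and deposited FPKM from Cufflinks. The paper also names a geometric normalization of read counts in EdgeR. Whether the deposited values carry that scaling was not checked, and the fitted depths would then include it. Versions and the annotation are not given in the sources used here. For each gene, the longest GENCODE M21 transcript (GRCm38) that has a RefSeq match, or the longest of any kind where there is no match, gave its length. Depth and a mean fragment length of 210 bases were fitted to the FPKM steps of genes with a single transcript. Of their values between 0.5 and 5.5 fragments, 81.4% in KPR- and 82% in KPRrestored were whole within 0.1, against 20% by chance. Fragments per gene were then estimated and rounded. The procedure was tested on simulated libraries. Their counts were drawn and recovered with the same transcript lengths, so the choice of transcript was not tested by them.

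The members, lists and threshold were chosen with earlier results of these data known. Named genes are all members, the counted regulators, the 3 largest differences each way past the threshold in each other list, and *Runx3*. Cell type markers come from fixed lists, and those named singly were picked after their values were seen. *Abhd5*, *Acsbg1*, *Gpat4*, *Cidec*, *Mgll*, *Lipa*, *Bscl2*, *Plin1* and *Ppara* were named after their values were seen. Alternatives were other pseudocounts, filters, scalings, a threshold of 1 and the shortest coding transcript. Scripts ran under Python 3.11.15 with scipy 1.17.1, pandas 2.3.3, numpy 2.4.6 and matplotlib 3.10.9.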

Additional observations from a re-analysis of the deposited data

How the results depend on the processing

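With pseudocounts of 0.1 and 1 FPKM, a filter at 5 FPKM, equal FPKM totals (TPM), equal upper quartiles and centring on the median gene, *Plin2*, *Plin3* and *Lpin2* were higher and *Acaca*, *Elovl6* and *Fasn* lower each time. A threshold of 1 left 1 higher member (*Plin2*) and 0 lower members, with 325 higher and 155 lower genes in all. Over all genes with any value the counts were 3193 higher and 3002 lower, and with a filter at a mean of 5 FPKM they were 872 and 641, since the number of low genes differs. With the length trend removed, chosen after seeing the data, *Fasn* was no longer lower, 12 of the 35 members moved outside their counting intervals, and *Acadl* went to -0.01. Taking each gene's shortest coding transcript (350 bases or more), which lowers the estimated fragments, 8 members in place of 13 had a counting interval above 0, and 12 in place of 16 had one below 0. Over the alternatives the median ran from -0.19 to -0.15 for synthesis, elongation and desaturation, from -0.17 to -0.14 for oxidation and from 0.83 to 0.87 for droplets and lipolysis. No paired analysis was possible because each condition has 1 library, and for the same reason no replicate could be left out.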
